A study of Mus musculus with 20 samples.

Results

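Of 6537 introns listed with a 5' splice site sequence, 1259 (19.3%) followed an exon whose last base was not G. These introns, called non-G introns here, were chosen by the third of the 9 bases listed for the site, which is the last base of the upstream exon; 617 followed A, 171 followed C and 471 followed T. They lay in 709 of 1407 genes (50.4%), and the other 5278 introns, called G introns, served for comparison. The last 3 exon bases in the list were the same as in GENCODE mouse release 21 transcripts for 6535 of the 6535 introns compared. For these, the base is that of the annotated exon, and 2 introns could not be compared. Dpp4 held the most members, 8 of its 19 listed introns, together with Nedd4, 8 of 27.

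The RNA came from wild-type murine erythroleukemia (MEL) cells, a mouse line of red cell precursors that matures in dimethyl sulfoxide (DMSO), either left untreated or kept in 2% DMSO for 5 days. RNA held on chromatin, with polyadenylated and ribosomal RNA removed, was read as long molecules on 2 kinds of PacBio instrument from 2 biological replicates per condition. The tables hold 1 pool per condition, uninduced and induced; which of the 8 samples were added together is not given in the sources used here, and no spread between replicates could be computed. The other 12 of the 20 samples (lines that carry a human beta-globin insert, and run-on sequencing) were not analysed here.

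At the start of splicing, the U1 particle pairs its RNA with the end of the exon and the first bases of the intron. A G at the end of the exon adds a base pair to that duplex, and a site without it depends on the other pairs. After U1 has left, the U6 particle pairs with the intron bases, and the first chemical step cuts the RNA at the site, which leaves an intermediate that is not yet joined to the next exon. A small class of introns is removed instead by the minor spliceosome, which reads a longer fixed sequence inside the intron.

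The commonest sites show what the members look like, with the last exon base in capitals, 3 exon bases first and 6 intron bases after them. The first pair of lines is after A, the second after C and the third after T, and the last pair gives the commonest G sites.
A, 35 introns: aaAgtaagt
A, 28 introns: caAgtaagt
C, 15 introns: caCgtgagt
C, 9 introns: aaCgtgagt
T, 23 introns: gaTgtaagt
T, 22 introns: aaTgtaagt
G, 82 introns: caGgtgagt
G, 81 introns: aaGgtgagt
The deposited 5' score, in which a higher value is a stronger site by the authors' unnamed program, was 9.72 for the first A site, 9.3 for the first C site and 9.11 for the first T site, against 10.67 for the first G site.

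Inside the intron, the members were closer to the consensus than G introns. At intron position 5, counted from the first intron base, G stood in 95.6% of introns after A, 98.2% after C and 94.7% after T, against 76.3% of G introns. At position 4, A stood in 84.1%, 90.1% and 88.5% of them, against 67.2%. The widest gap was at position 6, where T stood in 73.9%, 86.0% and 84.5%, against 43.0%. The second to last exon base went the other way: it was A in 51.5% of introns after A, 45.0% after C and 36.3% after T, against 67.2% of G introns. The Wilson 95% intervals of the members and of the G introns did not overlap at any of these positions, as the bar plot of consensus bases shows; these intervals cover counting only, and introns of one gene are not independent. As a result, 863 members (68.5%) began with GTAAGT or GTGAGT, against 1112 G introns (21.1%). Of the 944 introns that began with GTAAGT, 488 (51.7%) were non-G.

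**Figure D1:**
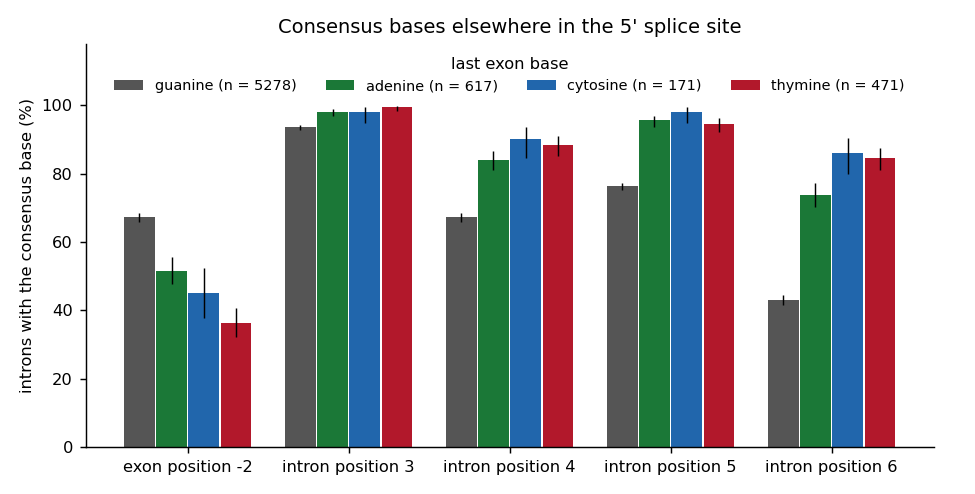
Share of introns (%) with the consensus base (A at exon position -2, A or G at intron position 3, A at 4, G at 5, T at 6), by last exon base; bars start at 0 and lines are Wilson 95% intervals. Introns after adenine, cytosine or thymine stand above G introns at positions 4, 5 and 6 and below them at exon position -2.

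The sites still scored lower. The median 5' score was 7.97 after A, 9.22 after C and 7.52 after T, and 9.04 for G introns, so only introns after C reached the level of G introns. No member scored above 10.93, while G introns went up to 11.81. Scores below 0 were held by 43 members (3.42%) and by 12 G introns (0.227%). Members made up 78.2% of all introns with a score below 0 and 3.92% of those with a score of 10 or more. The rule and the score read the same base, so this shift is a description of the score and not a finding about splicing.

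**Figure D2:**
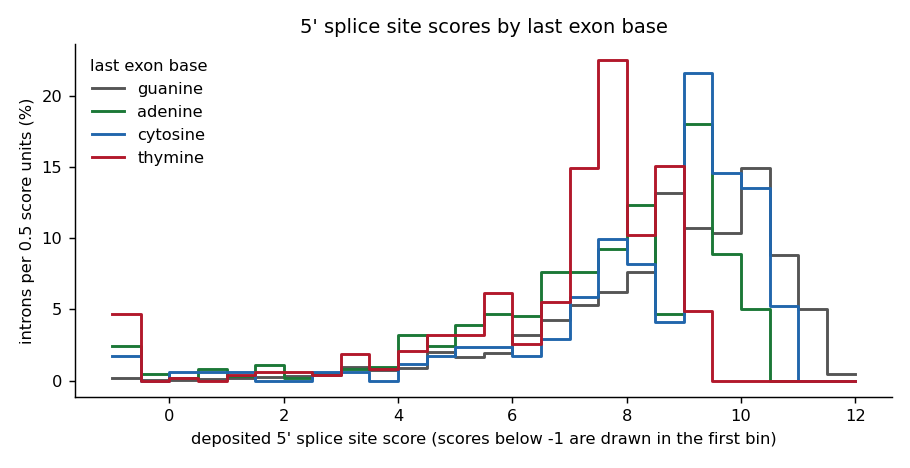
Deposited 5' score (horizontal) against the share of introns per 0.5 score units (vertical, %), one line per last exon base. The lines for adenine, cytosine and thymine peak to the left of the guanine line, in bins that start at 9, 9 and 7.5, against 10. All scores below -1 are drawn in the first bin.

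Away from the 5' site, members and G introns were close. The median 3' score was 8.63 in members and 8.715 in G introns, the median length 922 and 957.5 nucleotides, and the median GC content 43.3% and 44.0%. Position in the gene differed more. Introns that interrupt a codon after its second base (phase 2) were 35.7% of the members between coding exons and 18.8% of such G introns. By phase, 16.7% of phase 0, 16.1% of phase 1 and 32.1% of phase 2 introns were non-G. First introns were non-G in 11.8% of cases (115 of 976) and later introns in 20.6% (1143 of 5559), and introns of 5' untranslated regions in 9.85% (40 of 406). The last exon base of a phase 2 intron is the second base of a codon; the part of codon use in this difference was not tested.

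Across gene groups, non-G introns were 54 of 303 introns (17.8%) in ribosomal protein genes, 41 of 200 (20.5%) in translation factor genes, 16 of 108 (14.8%) in proteasome genes, 24 of 128 (18.8%) in genes of the spliceosome and RNA-binding proteins, 15 of 114 (13.2%) in chaperone genes and 14 of 51 (27.5%) in replication genes. The share over all introns was 19.3%. Of 12 erythroid marker genes, 10 had reads in the uninduced pool (Tal1 and Slc4a1 had none) and 12 in the induced pool. Of 9 markers of other blood cells, 2 had reads in each pool.

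Splicing was described for the 1091 uninduced and 568 induced members that were listed with a count of intermediates in that pool. The co-transcriptional splicing efficiency (coSE) is the fraction of reads across an intron that are spliced. The fraction called NIC is intermediates over intermediates plus spliced reads. Every listed intron had at least 10 spliced plus unspliced reads, with a median of 23 per member in both pools. NIC rested on fewer: a median of 14 intermediate plus spliced reads per uninduced and 15 per induced member, down to 1 in some introns. Members without a NIC in a pool could still have spliced and unspliced reads there. They entered the coSE test of induction below (708 members) where both pools had at least 10 reads. Uninduced mean coSE was 0.852 ± 0.206 (SD over introns, n = 1091) for members and 0.862 ± 0.198 (n = 4477) for G introns. After induction it was 0.869 ± 0.189 (n = 568) for members and 0.857 ± 0.204 (n = 2440) for G introns. The medians were 0.938 and 0.941 uninduced and 0.944 and 0.944 induced. Most members were thus spliced in most reads while on chromatin. In the uninduced pool, the lower quartile of their coSE was 0.8, and 347 (31.8%) had no unspliced read. There, 85 (7.79%) were spliced in under 50% of reads, a coSE under 0.5.

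Introns after C had the lowest mean coSE and the highest mean NIC in the uninduced pool. Their mean coSE was 0.803 ± 0.242 (SD, n = 142), against 0.858 after A and 0.860 after T. A coSE under 0.5 was found in 13.4% of them (19 introns), against 6.75% after A, 7.21% after T and 7.10% of G introns. Their mean NIC was 0.0718 ± 0.148 (SD), against 0.0393 after A, 0.0468 after T and 0.0424 in G introns. A NIC above 0.2 was found in 12% of introns after C and in 4.33% of G introns. The NIC means and shares include introns with few intermediate plus spliced reads. After induction, mean coSE was 0.848 after C, 0.868 after A and 0.878 after T, against 0.857 in G introns, so introns after A and T were then above G introns. Mean NIC was 0.0579, 0.0432 and 0.0483, against 0.0432 in G introns. A coSE under 0.5 was then as frequent after C (7.95%) as in G introns (7.79%).

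Members were then set against G introns of like 5' score. G introns were weighted so that their scores, in bins 1 unit wide, had the distribution of the members. The intervals below are 95% intervals for the counting error of the reads only. In the uninduced pool, the score-matched difference in mean coSE, members minus G introns, was -0.00103 (interval -0.00605 to 0.00399) over 1065 members with a G partner. The induced difference was 0.0240 (interval 0.0173 to 0.0307) over 552. For NIC the differences were -0.00332 (interval -0.00956 to 0.00292) and -0.00238 (interval -0.0106 to 0.00583). The uninduced values depended on the match: against G introns with the same 6 intron bases, the coSE difference was -0.0151 (interval -0.0207 to -0.00956) and the NIC difference 0.0110 (interval 0.00409 to 0.0179). The induced coSE difference at the same other 8 bases was 0.00703 (interval -0.00194 to 0.0160).

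By base the differences pointed in opposite directions. Introns after C had a lower coSE than G introns of like score in the uninduced pool (difference -0.0610, interval -0.0736 to -0.0484, n = 140). Their induced difference was -0.0147 (interval -0.0296 to 0.000252, n = 88). Introns after T had differences of 0.0117 (interval 0.00404 to 0.0193, n = 402) and 0.0426 (interval 0.0324 to 0.0529, n = 197). Introns after A had 0.00527 (interval -0.00131 to 0.0118, n = 523) and 0.0230 (interval 0.0140 to 0.0320, n = 267). For NIC, introns after C were higher by 0.0273 (interval 0.0110 to 0.0436) uninduced and 0.0164 (interval -0.00219 to 0.0351) induced. Introns after A had NIC differences of -0.0104 (interval -0.0185 to -0.00231) and -0.00407, and introns after T -0.00474 and -0.00851. Several of these turned with the match. At the same 6 intron bases, coSE after T differed by -0.00652 uninduced and 0.0130 induced, coSE after A by -0.00811 uninduced, and NIC after A by 0.00293 and after T by 0.0122 uninduced. At the same other 8 bases, coSE after A differed by -0.00207 induced. Taken over every intron with a listed sequence and at least 10 reads, coSE after T differed by 0.0234 induced (interval 0.0135 to 0.0333, n = 286).

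**Figure D3:**
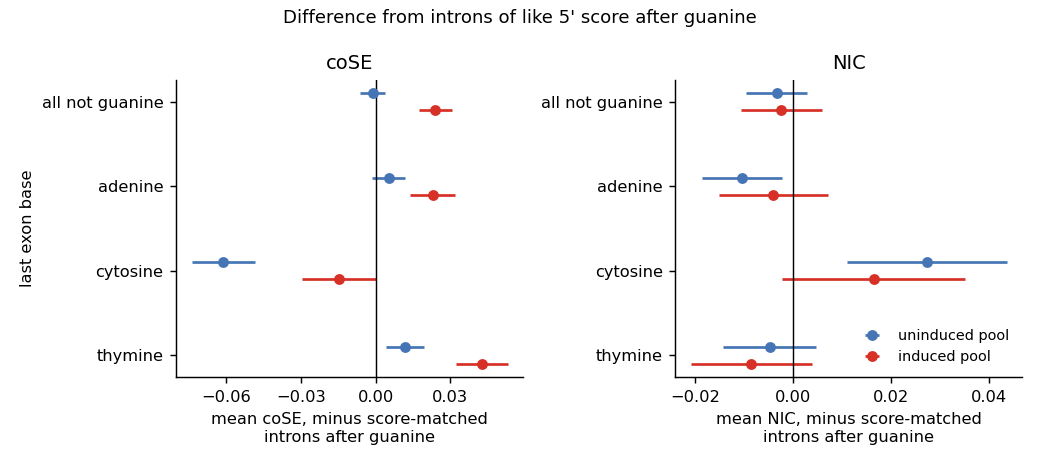
Mean coSE (left) and NIC (right) of introns after each base minus that of G introns of like 5' score; points are the differences in the uninduced and induced pools and lines 95% intervals for counting error only. Introns after cytosine lie left of 0 for coSE (-0.0610 and -0.0147) and right of 0 for NIC (0.0273 and 0.0164).

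The size of the C difference depended on the introns it was taken over. Compared only with G introns of the same gene within 1 score unit, coSE after C differed by -0.0150 (interval -0.0323 to 0.00230, n = 93) before induction and by 0.0301 (interval 0.00930 to 0.0510, n = 65) after it. The NIC difference was then 0.00434 (n = 93) and -0.00848 (n = 65). With at least 20 reads, the uninduced coSE difference was -0.0327 (n = 88), and with all reads summed over introns it was -0.0117. Against G introns with the same 6 intron bases it was -0.0667. Matched on score and length class, it was -0.0535 (n = 139). By length class, with no match on score, the uninduced gap was wide only up to 500 nucleotides. Mean coSE was 0.579 after C (n = 11) and 0.773 after G up to 100 nucleotides. For longer introns up to 500, it was 0.662 after C (n = 41) and 0.780 after G. Above 500 and up to 5000, it was 0.886 (n = 81) and 0.893. Above 5000, introns after C were higher, at 0.975 (n = 9) and 0.954. Among introns that all began with GTAAGT, mean uninduced coSE was 0.825 after C (n = 47), 0.861 after G (n = 398), 0.871 after A (n = 191) and 0.879 after T (n = 193). Mean NIC of these introns was 0.101 ± 0.203 after C and 0.0359 ± 0.0769 after G. Among introns that began with GTGAGT, the commonest start after C, introns after C did not stand apart from other members: mean uninduced coSE was 0.834 after C (n = 58), 0.830 after A (n = 133) and 0.845 after T (n = 126), with 0.874 after G (n = 550). Mean NIC there was 0.0489 after C, 0.0371 after A, 0.0444 after T and 0.0294 after G. Over all uninduced introns with a 3' score at or below the median, mean NIC was 0.113 after C (n = 63) and 0.0509 after G. Above the median, it was 0.0389 after C (n = 79) and 0.0338 after G. Mean coSE was lower after C on both sides, 0.789 against 0.843 and 0.814 against 0.880. In each length class, mean uninduced NIC was higher after C than after G.

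Along the score, from 3 to 11, the counting intervals of mean coSE overlapped in most uninduced bins. The bin from 8 to 9 was apart, with a mean coSE of 0.886 for 218 members and 0.872 for 943 G introns. So was the bin from 10 to 11, in the other direction, with 0.803 for 51 members and 0.874 for 1052 G introns, and a mean NIC of 0.0898 and 0.0339. After induction that bin had 0.885 for 32 members and 0.866 for 602 G introns. The bin from 6 to 7 had 0.878 for 57 members and 0.820 for 178 G introns after induction, and 0.834 and 0.829 before it. The induced bins from 7 to 8 and from 8 to 9 also had members above G introns, with 0.884 for 153 members and 0.862 for 287 G introns in the former and, in the latter, 0.902 for 111 members and 0.856 for 496 G introns. Below a score of 3, where an uninduced bin held at most 12 members, the gaps were wide and went both ways: the bin from 0 to 1 had 0.638 for 7 members and 0.844 for 7 G introns, and that from -1 to 0 had 0.873 for 4 and 0.591 for 6.

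**Figure D4:**
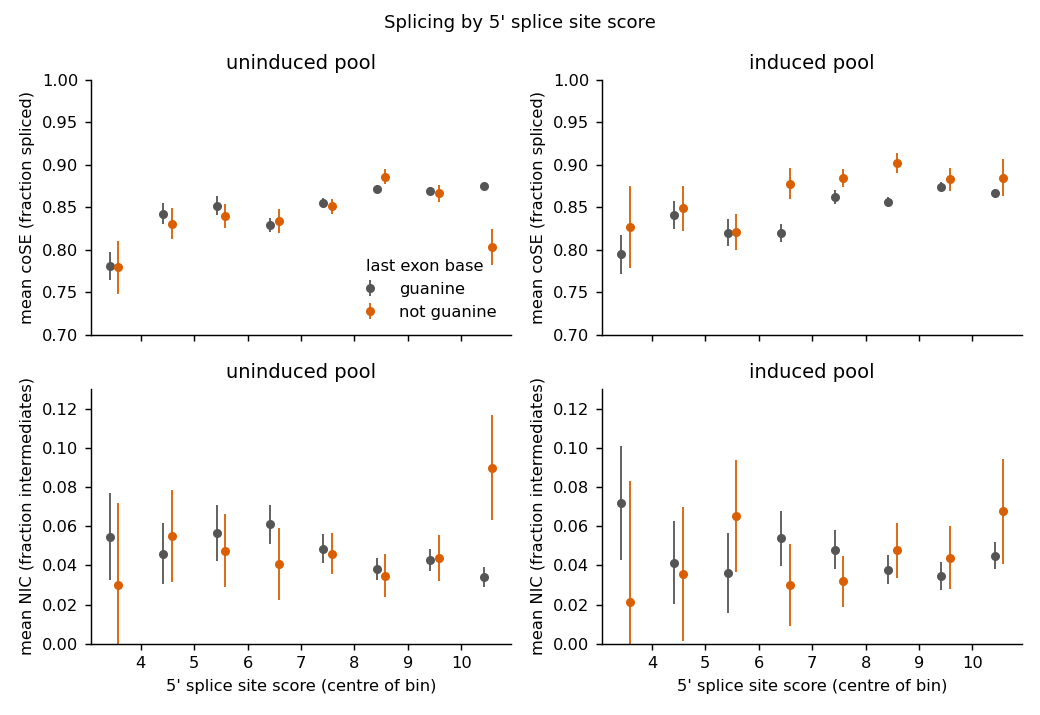
Mean coSE (top) and NIC (bottom) of members and G introns by 5' score in bins 1 unit wide from 3 to 11, uninduced pool left and induced pool right; lines are 95% intervals for counting error only and the coSE axis starts at 0.7. At scores from 10 to 11 in the uninduced pool, members had the lower coSE (0.803 against 0.874), while the 3 induced bins from 6 to 9 had members above G introns.

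Mean coSE of the members differed more between length classes than between bases. In the uninduced pool, it was 0.689 (n = 88) for members of up to 100 nucleotides, 0.750 (n = 282) for longer ones up to 500, 0.900 (n = 610) for those above 500 and up to 5000, and 0.975 (n = 111) above 5000. The same classes of G introns had 0.773 (n = 324), 0.780, 0.893 and 0.954. The shortest members had an induced mean of 0.699 (n = 59) and the shortest G introns 0.739 (n = 224). NIC in the shortest class was 0.0914 in members and 0.0469 in G introns uninduced, and 0.0516 and 0.0837 induced, so the order of members and G introns changed between the pools.

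Intermediates were unevenly spread among the members. After induction, 5.24% of intermediate plus spliced reads of all members were intermediates (804 of 15347, Wilson 95% interval 4.90% to 5.60%), against 4.14% of those of the G introns. A single intron, intron 5 of Alas2 (site agAgtaagt, score 9.35, chrX:150557409-150557938, + strand), gave 183 of the 804; without it the share was 4.11%. Alas2 is the red cell form of the enzyme that opens heme synthesis. Its uninduced line had 5 reads and no NIC value. In the uninduced pool, the members' share was 3.03% against 2.64% in G introns.

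The highest score among members was shared by a pair of introns with the same 9 bases after C, shown to set equal sites beside unequal values.
Hnrnpk intron 6: gaCgtaagt
Glo1 intron: gaCgtaagt
Both scored 10.93. Intron 6 of Hnrnpk, which encodes an RNA-binding protein, lies at chr13:58397797-58399155 on the minus strand, between coding exons. It had 42 intermediates of 65 reads in the uninduced pool, a NIC of 0.646 (Wilson 95% interval 0.525 to 0.751), and 37 of 63 after induction, 0.587 (interval 0.464 to 0.700). The intron of Glo1, which encodes the glyoxalase that detoxifies methylglyoxal, lies at chr17:30600180-30604019 on the minus strand and had 6 of 70, 0.0857, and 4 of 38, 0.105. Its position matched no annotated intron of its transcript, so its exon bases were not compared with the annotation. The intervals of the pair did not overlap in either pool (0.0399 to 0.175 and 0.0417 to 0.241 for Glo1). Their 3' scores differed, at 0.09 in Hnrnpk and 5.47 in Glo1. Hnrnpk intron 6 alone gave 23.6% of all intermediates after C before and 33.3% after induction. Without it, the share of intermediates after C was 3.19% and 4.16%, against 4.11% and 6.03% with it.

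Narf intron 8 (after T, site ttTgtaagt, score 7.4, chr11:121249193-121250292, + strand) had the most intermediates after T in the uninduced pool, 14 of 35, a NIC of 0.400. After induction it had 19 of 74, 0.257, and the intervals overlapped (0.256 to 0.564 and 0.171 to 0.367).

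A low score did not go with a low coSE in every member. The lowest scores were those of a pair of introns whose sites are shown for their distance from the consensus.
Acly intron 5: agAgttgag
Capza1 intron 5: acTgttaag
Intron 5 of Acly, which encodes ATP citrate lyase, lies at chr11:100519169-100519614 on the minus strand and scored -19.62. It was spliced in 20 of 21 uninduced and 19 of 19 induced reads. Intron 5 of Capza1, a subunit of the actin capping protein, lies at chr3:104834805-104839781 on the minus strand and scored -17.98, with 27 of 27 and 13 of 13 reads spliced. Both were thus spliced in nearly all reads.

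At the other end were, for each last exon base, the members with the lowest coSE among those with at least 20 reads in all. The lowest was intron 1 of Coa3 (after T), spliced in 0 of 21 uninduced and 0 of 25 induced reads and described further below. Intron 4 of Rpl21 (after A, score 6.43, chr5:146835105-146835563, + strand) was spliced in 1 of 26 uninduced and 1 of 8 induced reads. Rpl21 encodes a protein of the large ribosomal subunit and has near-identical copies, so its reads are uncertain. Intron 6 of Ctdsp1 (after C, score 8.56, chr1:74395023-74395455, + strand) was spliced in 1 of 17 and 1 of 11, and intron 3 of Dpp7 (after C, score 4.46, chr2:25355722-25355813, minus strand) in 2 of 11 and 1 of 25. Intron 11 of Nup88, a nuclear pore gene (after A, score 4.46, chr11:70944986-70945202, minus strand), was spliced in 2 of 22 and 0 of 6; a count of 0 in 6 allows a share of up to 50.0%. Intron 2 of Dtx3 (after T, score 3.69, chr10:127194474-127194681, minus strand, in the 5' untranslated region) was spliced in 2 of 20 and 2 of 4.

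The members with the most reads were in genes of the translation apparatus. Intron 2 of Rps19 (after A, site aaAgtaagt, chr7:24885207-24885451, + strand) had 636 of 641 uninduced and 334 of 337 induced reads spliced, coSE values of 0.992 and 0.991. Introns 1 (after T) and 2 (after A) of Rps3a1 had a coSE of 0.991 and 0.991 before and 0.994 and 0.994 after induction. After C, intron 2 of Rplp0 (site atCgtaagt, chr5:115559889-115560740, + strand) was spliced in 363 of 366 and 31 of 33 reads. The intron after C with the most induced reads, intron 2 of Alad, was spliced in 64 of 113.

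Induction was tested intron by intron with Fisher's exact test (two-sided, Benjamini-Hochberg adjustment over all 4403 introns with at least 10 reads in both pools), which compares 2 pools of libraries and not 2 conditions. Of 708 members tested, 8 changed coSE past an adjusted p of 0.05 (1.13%), 2 higher and 6 lower in the induced pool; over all introns the share was 1.61%, or 0.363% higher and 1.25% lower. Among the 2924 G introns tested, 60 (2.05%) were called; the difference between members and G introns was not tested. Their mean difference, induced minus uninduced, was 0.0153 ± 0.133 (SD over introns, n = 708), against 0.00832 ± 0.136 in 2924 G introns, and 317 members were higher, 248 lower and 143 equal. Without adjustment, 63 members (8.90%) had p under 0.05, against 7.97% of all introns. For NIC, 2039 introns with a value in both pools were tested, with no read minimum. Some had too few reads to pass, such as Coa3 intron 1 with 1 and 2 intermediate plus spliced reads. Fisher's exact test called 0 of 400 members and the chi-square test 0, against 0.0981% of all introns by Fisher's test. An unadjusted p under 0.05 by Fisher's test was found for 5 members (1.25%), against 1.67% of all introns.

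The 6 that fell were in Eef1a1, Rpl32, Rps14, Rpl4, Rack1 and Rint1. Intron 4 of Eef1a1, the elongation factor that brings aminoacyl-tRNA to the ribosome (after T, site aaTgtaagt, score 8.62, 77 nucleotides, chr9:78479775-78479851, minus strand), had 446 of 466 uninduced reads spliced, 0.957 (interval 0.935 to 0.972). After induction it was spliced in 71 of 91, 0.780 (interval 0.685 to 0.853; adjusted p = 0.000134, Fisher's exact test). Intron 3 of Rpl32 (after A, site caAgtgagt, score 9.1, chr6:115805689-115806985, minus strand) went from 367 of 374, 0.981, to 43 of 52, 0.827 (adjusted p = 0.00323, Fisher's exact test). Intron 2 of Rps14 (after A, chromosome 18, 60776552 to 60776929) went from 407 of 413, 0.985, to 38 of 44, 0.864 (adjusted p = 0.0277, Fisher's exact test). Intron 3 of Rpl4 (after T, score 1.97) went from 360 of 405, 0.889, to 51 of 71, 0.718 (adjusted p = 0.0361, Fisher's exact test). Ribosomal protein genes and Eef1a1 have near-identical copies elsewhere in the genome, so these counts are uncertain to that extent.

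Rack1, a protein of the small ribosomal subunit that anchors signalling kinases, held the only member that began with GC in place of GT.
Rack1 intron 2: aaCgcaagt
This intron (score 2.98, chr11:48801835-48802272, + strand) was spliced in 88 of 109 uninduced reads, 0.807 (interval 0.723 to 0.870), and in 11 of 26 induced reads, 0.423 (interval 0.255 to 0.611; adjusted p = 0.0252, Fisher's exact test). Its NIC was 0.110 (10 of 91) and 0.357 (5 of 14), with intervals that overlapped. The sixth, intron 6 of Rint1 (after C, site ctCgtatct, score -2.17), had 18 of 23 and 1 of 11 reads spliced (adjusted p = 0.0195, Fisher's exact test).

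The 2 members that rose were intron 4 of Arfgap2, a regulator of vesicle coats (after T, site gaTgtgagt, 79 nucleotides, chr2:91267257-91267335, + strand), and intron 3 of Psmd4, the ubiquitin receptor of the proteasome (after C, site caCgtgagt, chr3:95035325-95035809, minus strand). The Arfgap2 intron was spliced in 13 of 24 uninduced and 21 of 21 induced reads (coSE 0.542 and 1; adjusted p = 0.0247, Fisher's exact test). The Psmd4 intron was spliced in 28 of 57 and 26 of 30 (0.491 and 0.867; adjusted p = 0.0366, Fisher's exact test). With no coverage minimum, the adjusted p of Eef1a1 was 0.00128 and that of Rpl32 0.0298, both from Fisher's exact test, while those of the other 6 lay between 0.175 and 0.315. When uninduced counts were thinned to match the depth of the induced pool, Rack1, Rint1, Rpl4 and Psmd4 no longer passed Fisher's exact test (adjusted p = 0.0595, 0.0595, 0.121 and 0.0926).

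Members in erythroid genes ranged from nearly full to little more than 50% splicing after induction. In Tfrc, the transferrin receptor that brings iron into the cell, 7 of 18 listed introns were members, and their induced coSE ranged from 0.754 to 1 with a median of 0.976, against a median of 0.962 in 11 G introns. In Ank1, which ties the membrane skeleton to the red cell membrane, intron 1 (after A) was spliced in 203 of 206 induced reads and intron 23 (after T, score 4.57) in 61 of 61. Lower values were found in some enzymes of heme synthesis and in the anion exchanger Slc4a1. Alad intron 2 (after C, site caCgtgagt), in the gene of an early enzyme of that pathway, was spliced in 13 of 28 uninduced and 64 of 113 induced reads. Intron 1 of Ppox (after A, in the 5' untranslated region), a late enzyme of the pathway, had 25 of 38 and 24 of 36 spliced. Slc4a1 had no uninduced reads, and its introns 9 (after A), 16 (after C) and 19 (after T) had 32 of 56, 14 of 17 and 13 of 17 induced reads spliced. No gene in this paragraph held a member past the threshold of the Fisher test.

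A distinct set of members had the start of the minor spliceosome class. Of 35 introns that began with GTATCC or ATATCC, 30 (85.7%, Wilson 95% interval 70.6% to 93.7%) were non-G: 17 after T, 11 after A and 2 after C. The set was chosen after the data were seen. In 19 of the 30 (63.3%), the last 20 intron bases held TTAAC on the transcript strand, a short form of the branch element that the minor spliceosome reads. It was held by 2 of the 5 G introns with such a start (40%, Wilson 95% interval 11.8% to 76.9%). Among other members it was held by 2.03%, and among all introns by 2.29%. A match is a description of the letters and not a mapped branch point. The following 5' sites, with the minor-class start in capitals, and 3' sites, with TTAAC in capitals and the last 3 bases in the exon, are shown because they carry both marks.
Hsbp1 intron 2, 5' site: ggaATATCC
Hsbp1 intron 2, 3' site: gggctctTTAACtgtgccactag
Ubl5 intron 2, 5' site: caaGTATCC
Ubl5 intron 2, 3' site: cTTAACtccttcgtgcccagcac
Upf1 intron 8, 5' site: ataGTATCC
Upf1 intron 8, 3' site: tgacTTAACtcagttgccagatt
Pfdn5 intron 3, 5' site: tctGTATCC
Pfdn5 intron 3, 3' site: tcTTAACcctgccctctcagatg
Ssr3 intron 4, 5' site: agtGTATCC
Ssr3 intron 4, 3' site: cTTAACattaaatcttacagaaa
Their deposited 5' scores, which ran from -13.91 to 1.97 over the 30 with a median of -5.125, sit in the tail of the score distribution.

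Most of the set was spliced in most reads. The scoring program is not named, so whether its score applies to minor-class sites is not known. In the uninduced pool, median coSE was 0.936 over 27 introns, of which 8 had no unspliced read, against 0.938 over the other 1064 members. After induction, it was 0.865 over 14 introns, against 0.944 over 554. G introns with such a start had a median coSE of 0.940 (n = 4) before and 0.906 (n = 3) after induction. Pfdn5 intron 3, in the gene of a prefoldin chaperone subunit (chr15:102326850-102328521, + strand, score -4.71), was spliced in 45 of 45 uninduced and 27 of 27 induced reads. Hsbp1 intron 2, in the gene of a heat shock factor binding protein (chr8:119345003-119345612, + strand, score -13.91), was spliced in 73 of 75 and 30 of 30.

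A few of the set were seldom spliced. Intron 1 of Coa3, a factor for assembly of cytochrome c oxidase (site ttTgtatcc, chr11:101278399-101278713, minus strand), was spliced in 0 of 21 uninduced and 0 of 25 induced reads, which allows a share of up to 14.3% and 12%. Its 3' site held no TTAAC and scored -6.45. Intron 2 of Tspan31 (the same 9 bases at the 5' site, chr10:127068989-127069345, minus strand) was spliced in 12 of 34 and 4 of 22. Intron 8 of Upf1, the helicase of nonsense-mediated decay (chr8:70339433-70339742, minus strand), was spliced in 6 of 16 and 8 of 16. Vps35 intron 3 had the same 5' site as Coa3 and Tspan31 and was spliced in 44 of 47 and 16 of 17, so an equal 5' site went with coSE values from 0 to 0.941.

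Intermediates of the set were 3.70% of intermediate plus spliced reads (35 of 945) in the uninduced pool, against 3.01% in other members. Vps35l intron 10 had 4 intermediates of 15 induced reads while 17 of 17 spliced and unspliced reads were spliced.

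**Figure D5:**
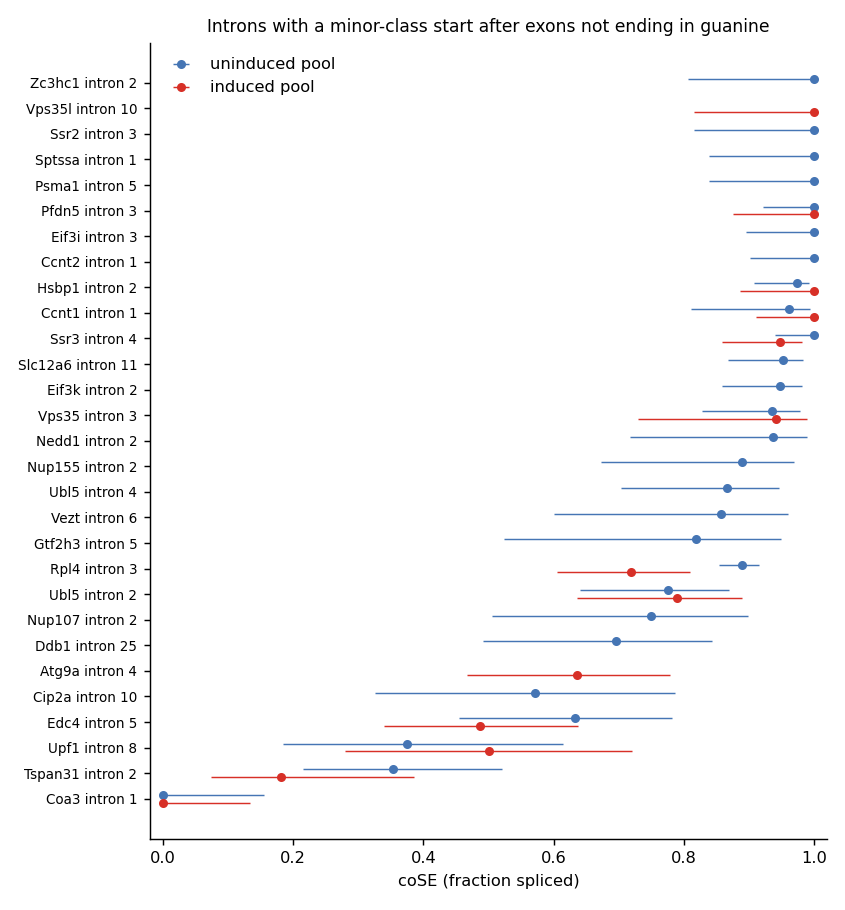
coSE (horizontal, fraction of reads spliced) of members that begin with GTATCC or ATATCC, as named on the vertical axis, in each pool where the intron was listed with at least 10 reads; lines are Wilson 95% intervals. Most points lie above 0.8, while Coa3 intron 1 is at 0 in both pools and Tspan31 intron 2 at 0.353 and 0.182.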

How the data were processed

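The authors deposited, per the file headers, a table of raw counts of spliced and unspliced reads per intron and condition, and a second table with counts of spliced reads and of intermediates, NIC as a fraction, GC content as a percent, and a score and sequence for each splice site (9 bases at the 5' and 23 at the 3' end). The submitters' processing notes name cutadapt, minimap2, SAMtools and bedtools and the build mm10, without versions or roles; how intermediates were recognised, the rule for listing an intron and the scoring program are not given in the sources used here. Each condition is 1 pool, 416379 and 279371 reads on introns in the first table.

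The tables were joined by intron position (1-based start after adding 2, end after taking 1), and annotated with GENCODE mouse release 21 on GRCm38. coSE was computed from counts, with Wilson 95% intervals; floors are 3 counts. Intervals and floors cover counting error only, since reads may be copies of a molecule. Matched differences weighted G introns to the members' 5' score bins, with counting variances after adding 2 successes and 4 reads. Fisher's exact tests (SciPy 1.17.1, Python 3.11.15) called introns at an adjusted p under 0.05. For coSE they took introns with at least 10 reads in both pools. For NIC they took every intron with a NIC value in both pools, with no read minimum. On simulated counts a coSE shift of 0.5 was recovered in 112 of 200 introns. The members, gene lists and tests were chosen with earlier results of these data known. Named introns passed the test or were, per last exon base, those with the most reads, the lowest coSE, the most intermediates or the highest or lowest score, began with other than GT, or were in erythroid genes. Alternatives are given in the closing section. A few introns are not reported here.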

Additional observations from a re-analysis of the deposited data

Results flagged for a closer look

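The difference in coSE between non-G introns and G introns of like 5' score was -0.00103 before induction and 0.0240 after it. It was picked out because the 2 pools lay on opposite sides of 0. The interval of the uninduced value includes 0. The difference between the pools was not tested, since each condition is 1 pool. Only part of the introns was listed in both pools, so the values rest on different introns.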

How the results depend on the processing

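No paired analysis was possible because the deposited tables hold 1 line per intron and condition, with no value per replicate; for the same reason, leaving out a replicate and a fit with a replicate block were not run. Over all alternatives, 47 values for non-G introns as a whole stayed close to those reported and 15 moved. By base, 155 stayed close, 26 moved and 5 reversed. The coSE difference from G introns in the uninduced pool (-0.00103) was -0.0101 with no match on score, 0.00601 within the gene, -0.0151 at the same 6 intron bases, 0.00742 with at least 20 reads, 0.0113 with reads added together and -0.00877 with genes weighted equally. With the same other 8 bases, an alternative chosen after seeing the data, it was -0.00830. In the induced pool (0.0240) it was 0.0112 with no match, 0.00735 at the same 6 bases, 0.0131 with genes weighted equally and 0.00703 at the same 8 bases. The uninduced NIC difference (-0.00332) was 0.00401 with no match, 0.0110 at the same 6 bases and 0.0101 at the same 8; the induced one (-0.00238) was 0.00647 with reads added together. The sign for all members together therefore depended on the match and on how reads were filtered or weighted. The exception was the induced coSE difference, which was above 0 in 16 of 16 settings. Its interval included 0 at the same 8 bases (-0.00194 to 0.0160). By base, among differences whose interval excluded 0, the signs that reversed were coSE after T in the uninduced pool (-0.00201 with no match, -0.00652 at the same 6 bases), coSE after A in the induced pool (-0.00207 at the same 8 bases) and NIC after A in the uninduced pool (0.00293 at the same 6 bases, 0.00147 at the same 8). Differences whose interval included 0 changed sign too: coSE after A uninduced went as far as -0.00811 and coSE after C induced as far as 0.0301, and NIC after T uninduced to 0.0122, after A induced to 0.0187, after T induced to 0.00892 and after C induced to -0.00848. For introns after C, the uninduced coSE difference was below 0 in 16 of 16 settings, from -0.0670 to -0.0117, and the NIC difference above 0 in 15 of 15, from 0.00434 to 0.0377. The cause of these moves was not tested. The count of 8 members with changed coSE was 14 by the chi-square test, 3 with no coverage minimum, 63 at an unadjusted p under 0.05 and 5 with uninduced reads thinned to the induced total; thinning ended the call for Rack1, Rint1, Rpl4 and Psmd4, with adjusted p from 0.0595 to 0.121. The count of 0 for NIC was 5 at an unadjusted p under 0.05. At a median of 23 reads, single introns show only large differences, introns are not replicates of a condition, and introns of a gene share molecules.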
